A study of Mus musculus with 16 samples.

Results

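The MHC class II genes and their transactivator were followed through the cells of mouse neuroblastoma grafts. The set holds 8 of the 19715 genes measured and was chosen by gene name: Ciita, Cd74, H2-Aa, H2-Ab1, H2-Eb1, H2-DMa, H2-DMb1 and H2-DMb2. All 8 were detected. The hosts were C57BL/6 males of 8 weeks, wild type (WT) or CD200R-/- (KO), and carried subcutaneous grafts of NB9464D, a mouse neuroblastoma line. The labels give the mutant mice as CD200R-/- in the sample characteristics and as CD200-/- in the growth protocol. Tumors had been taken on day 28 and digested with collagenase at 1 mg/mL. Either CD45+ leukocytes sorted from them (WT sorted, KO sorted) or all tumor cells (WT tumor, KO tumor) had been captured in droplets for single-cell RNA sequencing from the 3′ end. CD200R dampens the activity of myeloid cells when it meets CD200, and the grafted line was the same in both genotypes.

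MHC class II molecules are pairs of an alpha and a beta chain that hold peptides of engulfed proteins at the surface of dendritic cells, B cells and macrophages, where CD4 T cells read them. The invariant chain, encoded by Cd74, blocks the peptide groove of new pairs and guides them to the endosome, and H2-DM, a relative of the classical chains, then helps to load the peptide. CIITA does not bind DNA itself. It docks on the proteins that sit on the X and Y boxes of class II promoters, and its own level is known to set which cells transcribe these genes. Interferon gamma raises CIITA in macrophages.

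The sorted libraries held 5219 WT and 4305 KO cells, with a median of 4665 and 3127 UMIs per cell. The tumor libraries held 4955 WT and 5897 KO cells, with medians of 19850 and 16276 UMIs, a UMI being 1 captured RNA molecule. The labels list 16 samples, 4 per group, but the cells carry 1 library name per group, so each group was 1 library. No difference between genotypes therefore has a replicate check, no test was made, and intervals at 95% cover counting error only. Animal, graft and library cannot be told apart from genotype. Cd200r1, the gene of CD200R, had 2888 UMIs in WT sorted and 0 in KO sorted cells, and 76 in WT tumor and 5 in KO tumor cells. Cd200 RNA was present in both genotypes, with 692 and 1482 UMIs in WT and KO sorted cells and 81 and 180 in WT and KO tumor cells. Barcode sequences found in more than 1 library numbered 113, and 91, 86, 70 and 60 cells of the WT and KO sorted and the WT and KO tumor libraries carried them.

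Cell types are the 19 names the authors deposited, checked against marker lists that hold no class II gene. B cell markers led the class named hematopoietic stem cells in the sorted libraries, where their summed level was 9571 CPM (UMIs per 1000000) in WT and 6380 in KO, beside 10528 and 10546 CPM in the named B cells. Erythroid markers led the class named cancer stem cells in WT sorted cells, at 180305 CPM. Only 4 of the listed neuroblastoma markers were in the matrix. They did not separate the cells named neuroblastoma from those named fibroblasts in the tumor libraries. There they summed to 162 and 258 CPM in neuroblastoma cells of WT and KO and 189 and 346 CPM in fibroblasts. In KO sorted Tregs they summed to 577 CPM, so these 4 markers cannot settle either name. In the sorted cells named myeloid dendritic cells, macrophage markers summed to 5331 CPM in WT and 3165 in KO. Dendritic cell markers summed to 488 and 1080 CPM there. All names are kept as given. In all 4 libraries B cell markers were highest in the named B cells and macrophage markers in the named M1 macrophages. The M2 name was less clear: in WT tumor M2 cells fibroblast markers, at 1383 CPM, were above macrophage markers, at 1210.

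Of the 8 genes, 6 lie on chromosome 17, and Ciita and Cd74 are elsewhere. In the GENCODE M21 annotation of GRCm38 the chromosome 17 members follow in the order H2-DMa (34119541 to 34139101), H2-DMb2 (34143307 to 34151555), H2-DMb1 (34153072 to 34160230), H2-Ab1 (34257689 to 34269419), H2-Aa (34282744 to 34287823, minus strand) and H2-Eb1 (34305867 to 34316674). Ciita spans 10480059 to 10528418 of chromosome 16. RefSeq promoters of GRCm38.p6, each running from 250 bases before to 50 after the start, were matched for 5 members. The stretches that hold the X and Y letters are shown because these boxes are the known docking platform of CIITA. Capitals mark the X-box core AACNGATG and the Y-box letters ATTGG, searched on both strands, and each line reads 5′ to 3′ on the strand of the gene.
H2-DMb2, chr17:34145124-34145167, plus strand: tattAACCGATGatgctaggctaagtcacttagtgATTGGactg
H2-Eb1, chr17:34305774-34305816, plus strand: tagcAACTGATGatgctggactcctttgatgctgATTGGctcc
H2-Eb2, chr17:34325541-34325583, plus strand: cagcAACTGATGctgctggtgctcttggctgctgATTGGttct
H2-Aa, chr17:34287863-34287909, minus strand: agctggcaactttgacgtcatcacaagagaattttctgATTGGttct

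In H2-DMb2 and H2-Eb1 the X core was followed by the Y letters on the same strand, with 23 and 22 bases between them, beginning 121 and 89 bases before the start. H2-Eb2, a further class II beta gene that is no member, had the same spacing of 22 bases. H2-Oa and H2-Ob, class II genes outside the set that were searched as well, had the Y letters and no X core. Among the members, H2-DMb1 also held the pair, 23 bases apart. H2-Aa had the Y letters 48 bases before its start and no exact X core. H2-DMa had neither motif at its first annotated start and the Y letters alone at the other. Of 32817 mouse promoters of the same length, 2.32% held the X core, 37.4% the Y letters and 0.0488%, or 16 promoters, the pair with 5 to 40 bases between. The letters were picked after the sequences had been seen, and a match describes the sequence and no binding.

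Ciita, the transactivator, was highest in B cells, in 2 kinds of dendritic cell and in the class named hematopoietic stem cells. B cells held 178 CPM (163.9 to 193.9) in WT sorted, 262 in KO sorted, 123 in WT tumor and 274 in KO tumor cells, the WT tumor value resting on 11 UMIs. Myeloid dendritic cells held 128 and 184 CPM in WT and KO sorted cells, and CD11c+ resident dendritic cells 156 and 227. The class named hematopoietic stem cells, with its B cell markers, held 181 and 153.

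Macrophages carried far less Ciita, and the level differed by class and library. The cells named M1 macrophages held 11.1 CPM in WT and 17.8 in KO sorted cells, and 7.21 and 9.81 in WT and KO tumor cells. Those named M2 held 31.0, 97.0, 6.31 and 63.7 CPM in the same order of libraries, the WT tumor value from 7 UMIs. The M2 class was thus above M1 in 3 of the 4 libraries, and in WT tumor cells the intervals of M1 (3.11 to 14.2) and M2 (2.54 to 13.0) overlapped. Migratory dendritic cells, which have matured and moved, stood apart from the other dendritic cells with 9.84 CPM in 46 WT cells and 66.7 in 90 KO sorted cells.

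Other leukocytes ranged from no Ciita to levels like those of macrophages. Plasmacytoid dendritic cells, 17 WT and 34 KO sorted cells, held 53.4 CPM (24.4 to 101.4) and 32.0 (16.0 to 57.3), from 9 and 11 UMIs. NK cells held 6.66 and 9.18 CPM in WT and KO sorted cells, in the range of the tumor M1 macrophages. Neutrophils had 0 UMIs in all 4 libraries, and in the 432 WT sorted neutrophils this allows up to 2.70 CPM. WT sorted CD4 and CD8 T cells also had 0, with upper limits of 3.45 and 2.56 CPM. The class named Tregs was the exception among T cells, with 52.5 CPM in WT and 15.9 in KO sorted cells. B cell markers moved with it: all 8 were detected in both, and their summed level in this class was 1654 CPM in WT and 497 in KO. Their part in the Ciita value was not tested, but removing cells with markers of 2 lineages lowered the class II sum of these Tregs from 5285 to 273 CPM in WT and from 1676 to 720 in KO.

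Cd74, the invariant chain, was likewise highest in B cells and dendritic cells. In B cells it reached 17199 CPM in WT and 12475 in KO sorted cells, and 14130 and 13849 in WT and KO tumor cells, with a UMI in every B cell. Myeloid dendritic cells held 16784 and 12832 CPM in the sorted libraries. M2 macrophages held 5400, 7159, 1156 and 4477 CPM and M1 macrophages 1964, 3003, 1633 and 1619 CPM. CD4 T cells, which are not presenting cells, had a Cd74 UMI in 19.0% of WT sorted cells and 15.7% of KO sorted cells. Their median depths were 4212 and 2914 UMIs. The source of these UMIs was not tested, and shares at that level are not read as a trait of a class.

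The classical chains H2-Aa (alpha) with H2-Ab1 and H2-Eb1 (beta) followed the pattern of Cd74 across classes. H2-Aa stood at 5129, 5037, 4205 and 4703 CPM in B cells of the 4 libraries, in the order given above. H2-Aa was 1939, 3631, 474 and 2053 CPM in M2 macrophages. It was 701, 1476, 527 and 687 CPM in M1 macrophages. Within each preparation the KO value was the higher in both macrophage classes, whereas in sorted B cells the pair differed by little.

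The editor chain H2-DMa also had UMIs in T cells, and their source was not tested. It was 585, 388, 527 and 476 CPM in B cells and 808 and 694 in myeloid dendritic cells of the sorted libraries. WT and KO sorted CD4 T cells had 37.4 and 35.3 CPM and sorted CD8 T cells 47.9 and 39.1, the latter from 69 and 38 UMIs. In CD8 T cells H2-DMa per Cd74, as a ratio of UMIs, was 1.64 (1.10 to 2.47) in WT and 0.731 (0.468 to 1.13) in KO sorted cells. In WT sorted cells it was 0.0340 in B cells, 0.0755 in M1 macrophages and 0.0481 in myeloid dendritic cells. The ratio in CD8 T cells lay above that of each of these presenting classes.

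**Figure D1:**
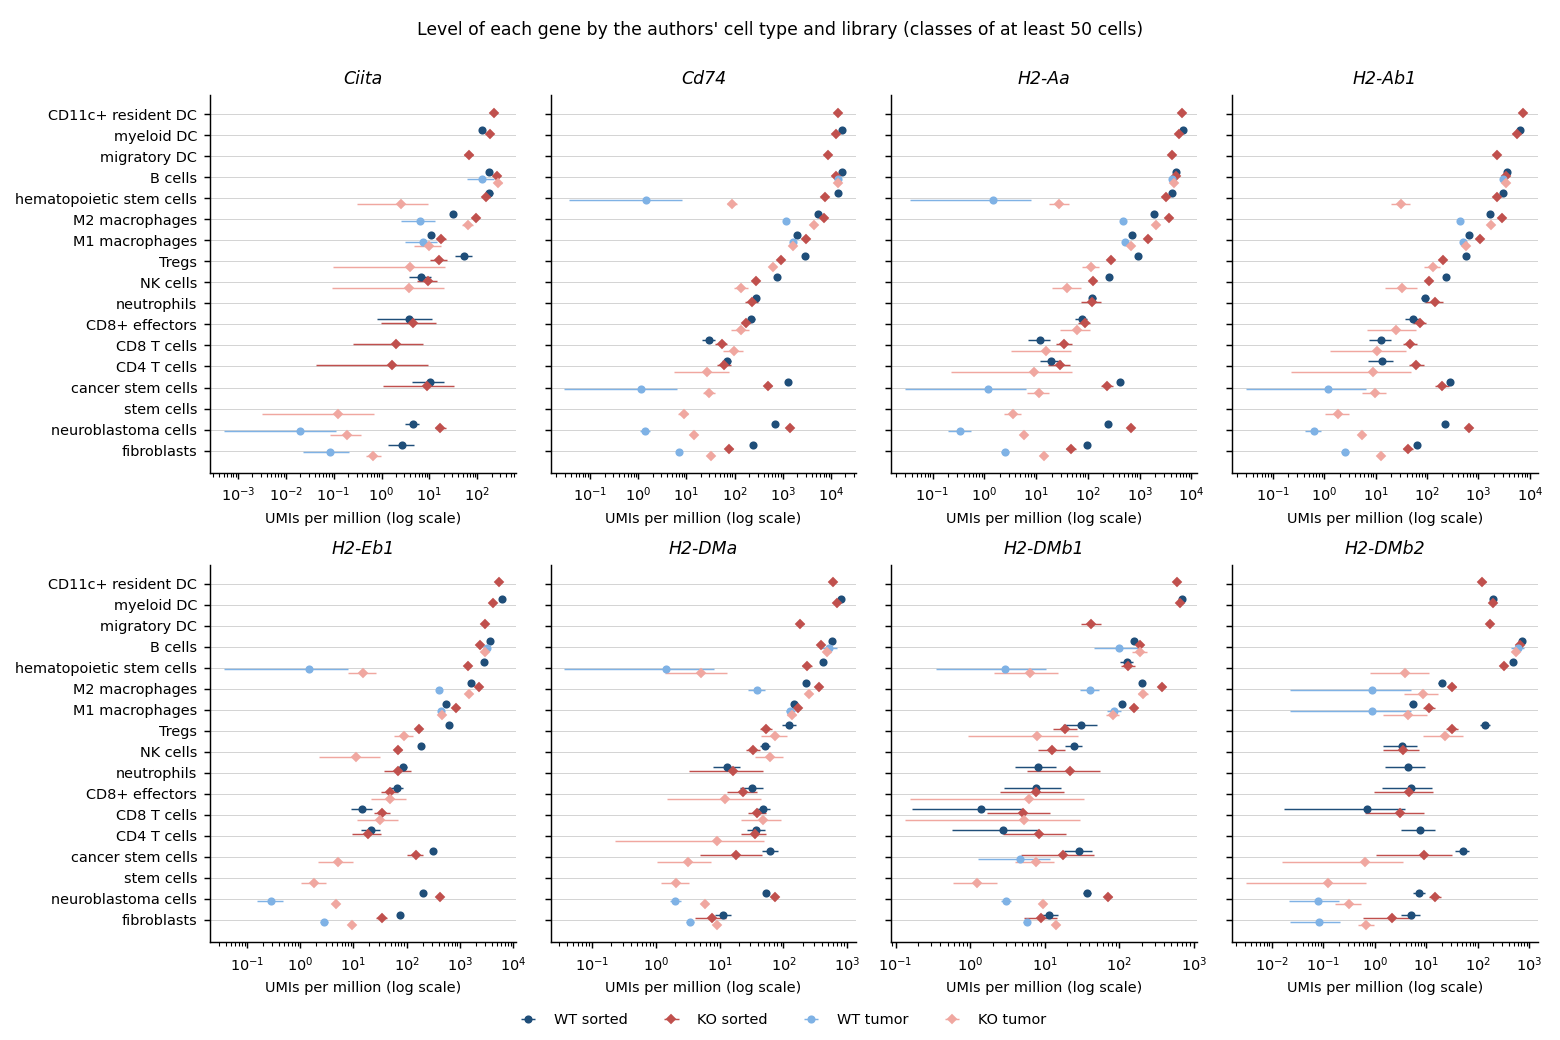
Level of each of the 8 genes in CPM (UMIs per 1000000, log scale) by the authors' cell type, for classes of at least 50 cells; points are the 4 libraries with 95% exact Poisson intervals, and classes with 0 UMIs have no point. B cells and dendritic cells lead for Cd74, H2-Aa and H2-Eb1. For Ciita and H2-Ab1 the KO sorted migratory dendritic cells lie below the M2 macrophages of that library. B cells and the other dendritic cells lead for these 2 genes, joined for Ciita by the sorted class named hematopoietic stem cells. For H2-DMb1 the sorted M2 macrophages, at 204 and 373 CPM, lie above the sorted B cells, at 157 and 190. H2-DMb2 is low in macrophages.

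For the sum of the 7 genes without Ciita (the class II sum), the order of classes of at least 50 cells was myeloid dendritic cells at 37852 CPM, B cells at 30982, M2 macrophages at 11119, Tregs at 5285 and M1 macrophages at 4142 in WT sorted cells. The smaller classes of CD11c+ resident and migratory dendritic cells, 30 and 46 cells, had 40720 and 21001 CPM. NK cells at 1512 and neuroblastoma cells at 1452 CPM did not differ beyond counting error. In KO sorted cells it was CD11c+ resident dendritic cells at 34382, myeloid dendritic cells at 29971, B cells at 24625, migratory dendritic cells at 18566, M2 macrophages at 16735 and M1 macrophages at 6732 CPM. The sum of KO hematopoietic stem cells, 15277 CPM, lay between those of M2 and M1 macrophages. In both tumor libraries B cells led the classes of at least 50 cells, at 25736 CPM in WT and 26195 in KO. The authors' hematopoietic stem cells, with their B cell markers, ranked after the named B cells at 25130 CPM in WT sorted cells.

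Few cells carried much of the class II RNA. Dendritic cells (myeloid, migratory and CD11c+ resident together) were 3.70% of WT sorted and 7.69% of KO sorted cells and held 29.5% and 45.2% of all class II UMIs. Macrophages of both names held 40.8% and 29.1%, from 30.2% and 17.7% of the cells. B cells held 20.1% and 16.7%. Of the Ciita UMIs, 25.3% and 41.2% were in dendritic cells, 29.6% and 21.1% in macrophages and 30.8% and 27.5% in B cells, a larger share for B cells than of class II UMIs. The share from dendritic cells was thus higher in the KO library by both readouts, and so was their share of cells. Over a whole library the class II sum was 7729 CPM in WT sorted, 11309 in KO sorted, 142 in WT tumor and 529 in KO tumor cells.

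Cell by cell, class II RNA was uniform in B cells and uneven in macrophages. With every cell thinned to 2000 UMIs and shallower cells left out, the median WT sorted B cell gave 3.05% of its UMIs to class II genes, with 10th and 90th percentiles of 2.05% and 4.2%. The median KO sorted B cell gave 2.35% (1.65% to 3.02%). Thinning left out 53 WT and 375 KO sorted B cells, and without it the medians were 3.11% and 2.48%. The median myeloid dendritic cell gave 4.4% in WT and 2.9% in KO sorted cells.

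M2 macrophages ran from cells with no class II UMI to cells at the level of B cells. Their median was 0.15% in WT sorted and 0.95% in KO sorted cells, with 90th percentiles of 3.05% and 3.55%. In the tumor libraries the M2 median was 0% in WT and 0.8% in KO cells. Of the 81 WT tumor M2 cells, 54 (66.7%) had no class II UMI at all, before thinning, against 32 (19.1%) of 168 in KO tumor cells. Fibroblast markers in these WT tumor M2 cells were above the macrophage markers, as given above, and their part was not tested. M1 medians were lower, at 0.05% and 0.3% in sorted and 0.05% and 0.1% in tumor cells.

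**Figure D2:**
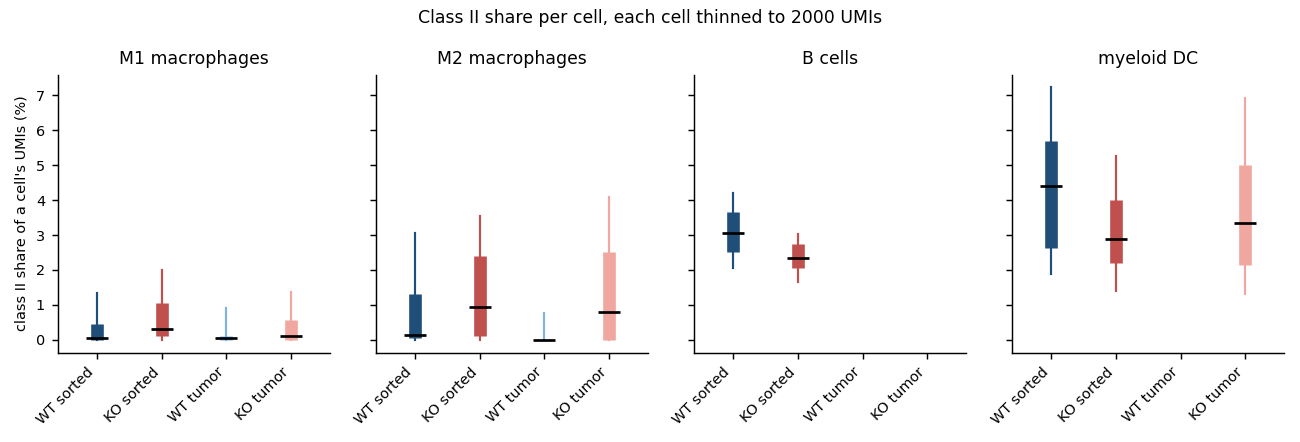
Class II share of a cell's UMIs in percent after thinning to 2000 UMIs, in 4 classes and up to 4 libraries; black lines are medians, boxes the 25th to 75th and whiskers the 10th to 90th percentile of cells; classes left with few cells, such as tumor B cells, are not drawn. B cells form a narrow band with medians of 3.05% and 2.35%, while the M2 class reaches from 0 to over 3% in 3 libraries.

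Cells in which a Ciita UMI was caught had more class II RNA in macrophages, while the medians of B cells were close. In thinned WT sorted macrophages the median class II share was 2.0% in the 47 cells with a Ciita UMI and 0.1% in the 1450 without. It was 2.6% in 59 against 0.4% in 598 KO sorted macrophages, and 2.4% in 21 against 0.125% in 216 KO tumor macrophages. Dendritic cells showed a smaller gap, 4.7% against 3.25% in WT and 3.45% against 2.6% in KO sorted cells. In B cells the medians were 3.1% and 3.05% in WT and 2.35% and 2.4% in KO sorted cells. All cells of a comparison come from 1 library, so these are descriptions of that library.

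The share of macrophages with a Ciita UMI was 3.14% in WT and 8.98% in KO sorted cells after thinning, and 0.699% and 8.86% in tumor cells. Of the 143 thinned WT tumor macrophages, 142 had no Ciita UMI. Unthinned, it was 15.5% and 25.2% in sorted and 4.19% and 12.7% in tumor cells. The share was 0 of 432 WT sorted neutrophils, which allows up to 0.850%, at a median of 2597 UMIs. M1 macrophages had medians of 25401 and M2 macrophages of 10838 UMIs in that library.

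Genotypes were compared within a class as the log2 of KO over WT, relative to the median gene of that class, and a gene is called higher or lower at 1.5-fold or more with at least 20 UMIs over both libraries. The median gene itself, by total UMIs, stood 0.33 higher in KO in macrophages of either preparation, 0.44 in sorted and 0.33 in tumor B cells and 0.29 in sorted dendritic cells. Macrophages are M1 and M2 together, 1577 WT and 761 KO sorted cells and 191 WT and 371 KO tumor cells.

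In sorted macrophages 4 of the 8 genes were called higher in KO, where 21.5% of all 12613 genes were, and 0 were lower, where 23.5% were. Ciita led, from 16.1 CPM in WT to 51.3 in KO (log2 1.34, interval 1.16 to 1.52). H2-Aa was 1011 and 2387 CPM (0.91), H2-Ab1 919 and 1858 (0.68) and H2-DMb2 9.06 and 20.1 (0.81). Cd74 was 2826 and 4761 CPM (0.42), H2-Eb1 826 and 1438 (0.47), H2-DMa 168 and 249 (0.24) and H2-DMb1 133 and 249 (0.57), all within 1.5-fold of the median gene. The median of the 8 was 0.63. The class II sum was 5892 CPM in WT and 10962 in KO (0.56), and without cells whose barcode occurs in another library the log2 ratio was 0.66. The mix of names differed between the genotypes, with 950 M1 and 627 M2 cells in WT and 350 and 411 in KO, and the ratio was 0.39 within M1 and 0.21 within M2, both under the pooled value. The 10 dendritic cell markers were all detected in these macrophages, at a summed 77.1 CPM in WT and 185 in KO, and their part in the class II values was not tested.

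In tumor macrophages all 7 genes with at least 20 UMIs were called higher in KO, where 17.7% of all 9989 genes were, and 0 were lower, where 15.2% were. Ciita was 6.76 CPM in WT, from 15 UMIs, and 34.4 in KO (2.01, 1.196 to 2.92). H2-Aa was 500 and 1310 CPM (1.06), Cd74 1394 and 2924 (0.74) and H2-DMa 83.8 and 188 (0.83). H2-DMb2, with 2 and 13 UMIs, had too few to be called. Dendritic cell markers summed to 66.2 CPM in WT, with 6 of 10 at 0, and to 162 CPM in KO. Fibroblast markers summed to 1040 CPM in WT and 292 in KO. The part of both marker lists in the values was not tested. The log2 ratio of the class II sum was -0.14 within tumor M1 and 1.59 within tumor M2, as given below. In both preparations 3 of 7 genes were called higher, Ciita, H2-Aa and H2-Ab1, beside 8.50% of all genes, and 0 were lower beside 7.13%.

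The 2 macrophage names did not carry this difference alike. Within M1, 2 of 8 genes were called higher in sorted KO cells, H2-Aa (0.77) and H2-DMb2 (0.75), beside 21.3% of all genes. Within M1 of the tumor libraries 0 of the 6 genes with at least 20 UMIs were called higher, beside 19.3% of all genes, and the class II sum was 3307 CPM in WT and 3553 in KO. That is a log2 of -0.14 (-0.21 to -0.08) relative to the median gene and 0.10 by total UMIs, so its direction depended on the scaling. Ciita in M1 was 0.38 (0.02 to 0.73) in sorted cells and could not be called in tumor cells, at 8 and 11 UMIs.

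Within M2 the preparations differed in turn. In sorted M2 cells 1 of 8 genes was called higher, Ciita (1.27, 1.03 to 1.5), beside 19.2% of all genes, with the class II sum at 0.21. In tumor M2 cells all 7 genes with at least 20 UMIs were called higher, beside 25.4% of all genes, from 1.44 for H2-Eb1 to 2.92 for Ciita, and the class II sum was 2561 CPM in WT and 10249 in KO (1.59). The marker levels of this class also differed: all 8 macrophage markers were detected in both, at a summed 1210 CPM in WT and 4324 in KO tumor cells, and all 6 fibroblast markers at 1383 CPM in WT against 5 of 6 at 383 in KO. In WT tumor M2 cells the 6 T cell markers were at 0. The part of these markers in the class II values was not tested. Ciita in M2 was thus called higher in both preparations and the classical chains in the tumor preparation, and the difference between preparations was not tested.

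The preparations were also compared within a genotype for macrophages and B cells. Relative to the median gene, the class II sum was lower in tumor than in sorted cells by a log2 of -1.93 in WT M2 macrophages and -0.56 in KO M2 macrophages. In M1 it was -0.30 in WT and -0.91 in KO. In B cells it was -0.24 in WT and 0.33 in KO. Macrophage markers of M2 cells summed to 6881 CPM in sorted and 1210 in tumor cells of WT, and to 6589 and 4324 in KO. The sorted and tumor preparations also differ in the gate and in depth. The part of all these in the values was not tested.

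In sorted B cells 0 of the 8 genes were called higher in KO, where 24.7% of all 9017 genes were, and 3 were lower, where 27.4% were. H2-Eb1 was 3653 CPM in WT and 2386 in KO (-1.05), H2-DMa 585 and 388 (-1.03) and Cd74 17199 and 12475 (-0.90). H2-Aa, at 5129 and 5037 CPM, lay at -0.46, since the median gene was higher in KO. Ciita was 178 and 262 CPM (0.12, -0.05 to 0.29). By total UMIs alone the class II sum of these B cells differed by -0.33 in place of -0.77.

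In tumor B cells, 58 WT and 327 KO cells, 1 gene was called higher, where 27.1% of all 3262 genes were, and 0 lower, where 20.3% were. It was Ciita (0.82, -0.08 to 1.86), whose interval includes 0. Erythroid markers in these B cells summed to 370 CPM in WT, with 1 of 4 at 0, and to 2868 in KO, and their part in the values was not tested. In both preparations together 0 of 8 genes were called higher and 0 lower, beside 13.0% and 12.3% of all genes. The class II sum of tumor B cells was -0.31 relative to the median gene and 0.03 by total UMIs, so its direction depended on the scaling.

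In sorted dendritic cells 0 genes were called higher in KO, where 18.1% of all 10791 genes were, and 2 were lower, where 18.7% were: H2-Eb1, 5838 and 4143 CPM (-0.79), and Cd74, 15943 and 12125 (-0.69). Ciita was 115 and 168 CPM (0.25, 0.08 to 0.41). Macrophage markers in these dendritic cells summed to 3653 CPM in WT and 1958 in KO and dendritic cell markers to 1538 and 3018, all 8 and 10 being detected in both, and their part in the values was not tested. Ciita thus lay above the median gene and the other 7 below it, H2-DMb2 (-0.18) being above 0 by total UMIs. In sorted B cells those 7 also lay below, H2-DMb1 (-0.16) being above 0 by total UMIs, and the interval of Ciita included 0. The median of the 8 was -0.52 in sorted B cells, -0.27 in tumor B cells and -0.53 in sorted dendritic cells, and that of the 7 with at least 20 UMIs was 0.83 in tumor macrophages. The median of all genes is 0 in each by the scaling.

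**Figure D3:**
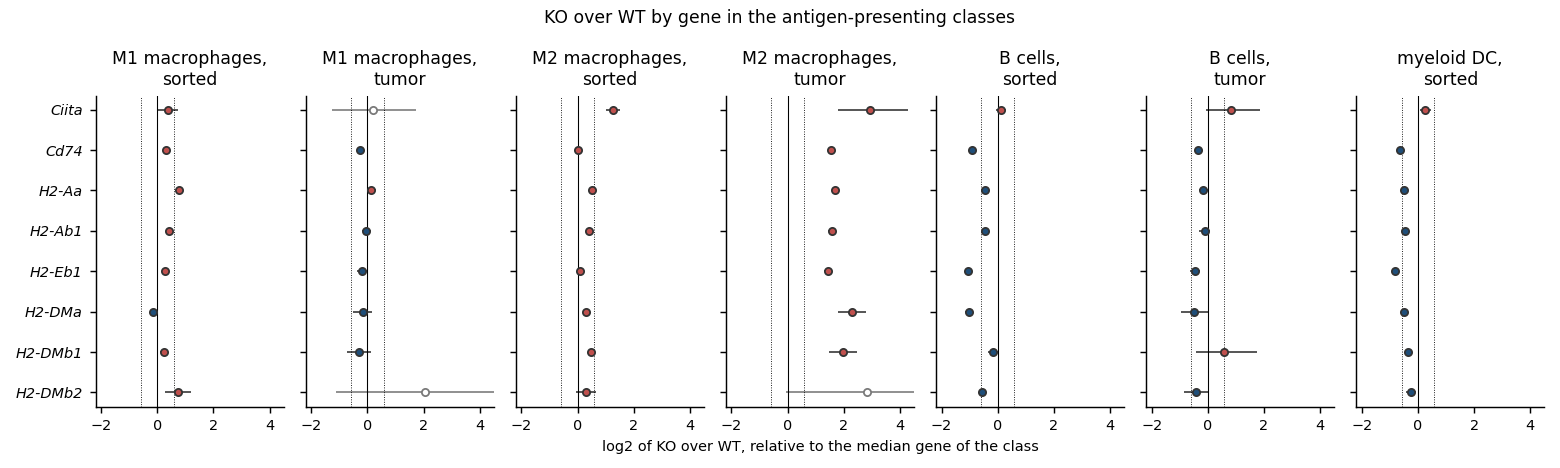
Log2 of KO over WT relative to the median gene, for each gene in M1 and M2 macrophages, B cells and myeloid dendritic cells; bars are 95% counting intervals, dotted lines mark 1.5-fold, filled red and blue points lie above and below 0, and open points have under 20 UMIs. Every gene of the tumor M2 class lies to the right of the upper dotted line, with Ciita furthest among those of at least 20 UMIs, while Cd74, H2-Eb1 and H2-DMa of sorted B cells lie to the left of the lower one.

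Among other sorted classes, the class II sum was lower in KO in NK cells, at 1512 and 628 CPM (-1.63), and in Tregs (-2.06), in which 8 of 8 genes were called lower beside 25.4% of all genes. Macrophage markers in the NK cells summed to 1297 CPM in WT and 161 in KO. Without cells of 2 lineages the NK values were 263 and 281 CPM. In the Tregs that removal left 273 CPM in WT and 720 in KO, as given above, so that KO was the higher.

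Within a class, the genes were also compared with one another, which needs no scaling between libraries. The ratios are of UMIs, are not corrected for gene length and are read only across classes or libraries. The KO cells had fewer Cd74 UMIs per H2-Aa UMI in nearly every class. In sorted cells the ratio was 3.35 (WT) and 2.48 (KO) in B cells, 2.80 and 2.04 in M1, 2.79 and 1.97 in M2 macrophages and 2.46 and 2.21 in myeloid dendritic cells. It was lower in KO in 13 of 14 sorted classes, with intervals apart in 8, and the exception was Tregs, at 2.99 and 3.37. In the tumor libraries it was lower in 5 of 5 classes, with intervals apart in 1, the M1 macrophages (3.10 and 2.36).

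H2-Eb1 per H2-Aa was also lower in KO. Sorted B cells had 0.712 in WT and 0.474 in KO, and the values were 0.838 and 0.620 in M2 macrophages and 0.890 and 0.716 in myeloid dendritic cells. It was lower in KO in 11 of 11 sorted classes, with intervals apart in 6, and in 4 of 4 tumor classes, with intervals apart in 1. That class was the fibroblasts (1.115 and 0.686), with 136 H2-Eb1 and 122 H2-Aa UMIs in WT. In tumor B cells and M1 and M2 macrophages the intervals overlapped. H2-Ab1 per H2-Aa had no such direction, being lower in 3 and higher in 8 of 11 sorted classes. The first 2 ratios were thus lower in KO across sorted B cells, dendritic cells and macrophages, and also in the classes named NK cells (Cd74 per H2-Aa 2.97 and 2.19) and neuroblastoma cells (2.83 and 1.99). These last 2 held macrophage markers, at 1297 and 161 CPM in NK cells and 5898 and 1405 CPM in neuroblastoma cells. Classes of 1 library share its preparation and sequencing and are not replicates of each other.

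**Figure D4:**
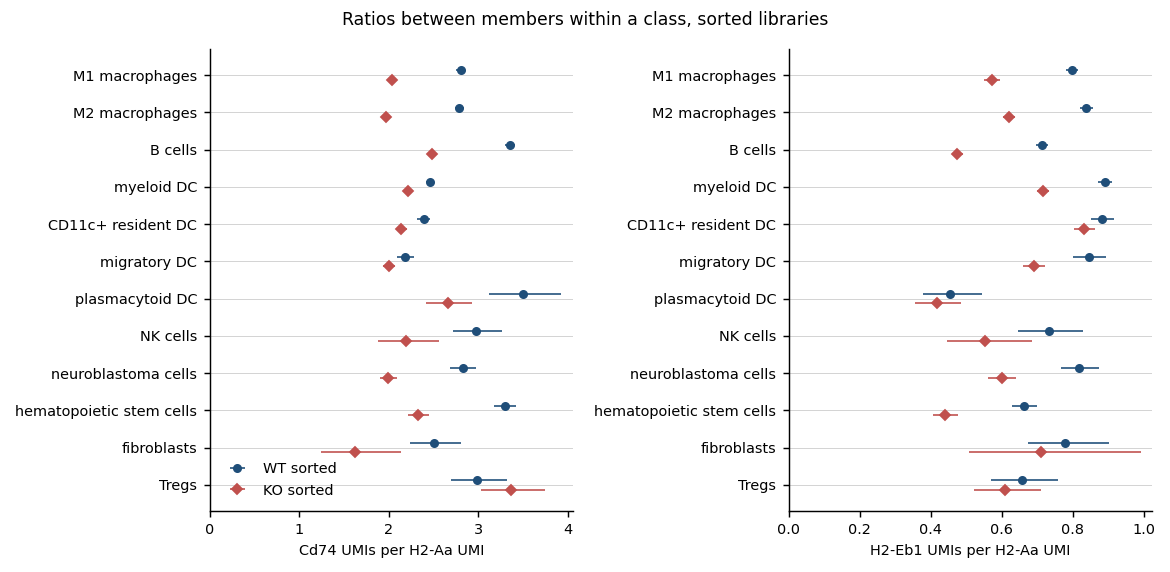
Ratios of UMIs between class II genes within a class in the WT sorted and KO sorted libraries, with 95% counting intervals; the vertical positions are the authors' cell types. Cd74 per H2-Aa and H2-Eb1 per H2-Aa are lower in KO in B cells, dendritic cells and macrophages alike, from 3.35 to 2.48 and 0.712 to 0.474 in B cells.

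The 2 beta chains of H2-DM, H2-DMb1 and H2-DMb2, divided the classes. They are near-identical neighbours, so reads can be split between them with error, and their shares are compared only between classes. H2-DMb2 made up 82.0% of the UMIs of the pair in WT sorted B cells (80.5% to 83.4%), 77.4% in KO sorted, 85.5% in WT tumor and 74.7% in KO tumor B cells. In M1 macrophages it was 4.74% in WT and 6.66% in KO sorted cells, and in M2 macrophages 8.90% and 7.92%. B cells and macrophages did not overlap in any library.

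Dendritic cells fell on both sides. Migratory dendritic cells were at 73.0% in WT and 80.1% in KO sorted cells, near the B cells. Myeloid dendritic cells were at 21.8% and 22.8%, and CD11c+ resident dendritic cells at 10.2% and 16.8%. The class named hematopoietic stem cells was at 79.3% and 70.6% and Tregs at 81.6% and 62.7%, both with B cell markers as given above. H2-DMb1 per Cd74 was 0.00913 in WT sorted B cells, 0.00433 in migratory dendritic cells, 0.0411 in myeloid dendritic cells and 0.0556 in M1 macrophages. B cells and the 46 migratory dendritic cells thus had the least H2-DMb1 for their Cd74 among these classes. Both genes hold the X and Y letters with the same spacing of 23 bases.

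**Figure D5:**
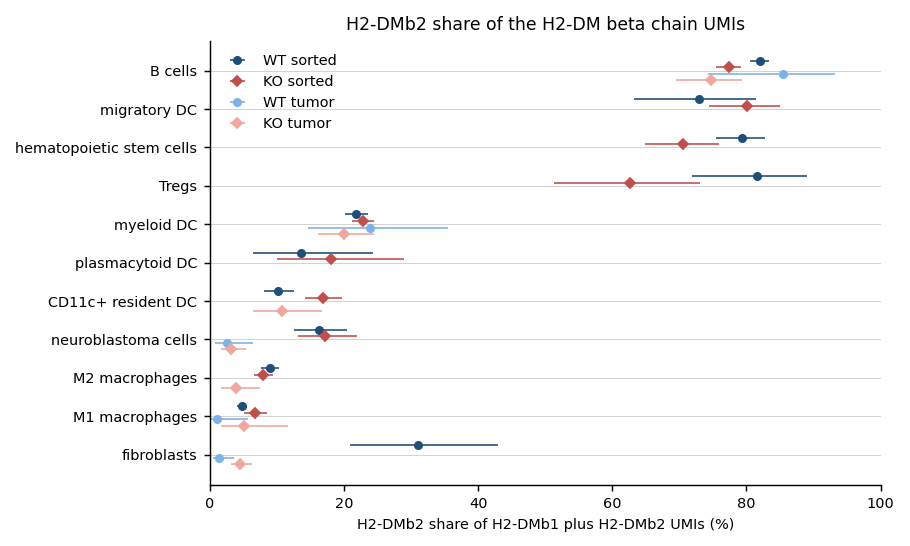
Share of H2-DMb2 among the UMIs of H2-DMb1 plus H2-DMb2, in percent, by cell type and library, with 95% Clopper-Pearson intervals. B cells and migratory dendritic cells lie between 73.0% and 85.5%, myeloid dendritic cells near 22% and macrophages under 10%.

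Fibroblasts and neuroblastoma cells of the tumor libraries, most of the cells there, had traces of class II RNA, and more in KO. The class II sum was 24.1 CPM in WT and 92.8 in KO fibroblasts (1.64, 1.54 to 1.73), and 7.77 and 46.1 CPM in neuroblastoma cells (2.36, 2.20 to 2.52). Cd74 was 6.98 and 32.7 CPM in fibroblasts and 1.39 and 14.3 in neuroblastoma cells. Few cells held these UMIs: the top 1% of fibroblasts had 61.2% of them in WT and 66.7% in KO. Cells with at least 10 class II UMIs numbered 6 of 2461 WT and 31 of 2493 KO fibroblasts, and of these 6 and 30 also had at least 3 myeloid or B cell markers. In neuroblastoma cells they were 1 of 1665 WT and 16 of 1283 KO cells, of which 1 and 12 had such markers. Without cells of 2 lineages the fibroblast sums were 11.4 and 30.0 CPM and the neuroblastoma sums 6.46 and 27.3.

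The balance of H2-DM to classical chains differed in these cells from that of presenting cells. In the tumor libraries H2-DMa and the DM beta chains together gave 1.17 UMIs per UMI of the classical chains in WT fibroblasts and 4.18 (3.16 to 5.61) in WT neuroblastoma cells. The same ratio was 0.118 in WT sorted B cells, 0.137 in M1 and 0.0855 in M2 macrophages and 0.0873 in myeloid dendritic cells. It was 0.666 and 0.984 in KO fibroblasts and neuroblastoma cells. H2-DMb1 led there, with 276 UMIs in WT fibroblasts and 154 in WT neuroblastoma cells, while H2-Aa had 122 and 17. In the sorted libraries the same names had ratios close to those of presenting cells, 0.119 in WT fibroblasts and 0.149 in WT neuroblastoma cells.

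Cells named neuroblastoma in the sorted libraries had much higher sums, 1452 CPM in WT and 3301 in KO. There 58 of 205 WT and 40 of 171 KO cells had at least 10 class II UMIs, and 58 and 38 of these had at least 3 myeloid or B cell markers. Macrophage markers summed to 5898 and 1405 CPM in these classes. Without cells of 2 lineages the sums were 2321 and 5800 CPM.

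The genes around the class II set were taken from 6 lists with 44 genes in the matrix. In macrophages of both preparations, 5 of 17 upstream regulators were called higher in KO and 1 lower. Among the higher were Irf1 (1.13 sorted, 1.39 tumor), a transcription factor of the interferon response, Jak2 (1.73 and 0.71), a kinase of the interferon gamma receptor, Socs1 (0.97 and 1.39), a feedback inhibitor of that pathway, and Creb1 (0.78 and 0.59). Ifngr1 (0.30 and 0.25), Ifngr2 (-0.34 and 0.07), Jak1 (0.53 and 0.20) and Irf8 (-0.04 and -0.27) of the same list stayed within 1.5-fold in both. Rfxap (-0.92 and -0.63), a subunit of the RFX complex on the X box, was lower. These values are of M1 and M2 together, whose mix differed between the genotypes. Rfx5, another subunit, was called higher in sorted macrophages (1.38), at 3.26 CPM in WT and 10.7 in KO, and had under 20 UMIs in tumor macrophages.

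Of 6 turnover genes and partners of Cd74, 4 were higher and 1 lower in both preparations. March1 (0.90 and 1.37) and March8 (0.91 and 1.38) encode ubiquitin ligases, MARCH1 being the one that removes class II from the surface. Cd44 (1.10 and 1.64) and Cxcr4 (1.23 and 1.58) encode partners of surface CD74, and its ligand Mif was lower (-1.2 and -1.36). Of 10 processing genes 1 was higher, Sppl2a, the protease that clears the Cd74 stub (0.82 and 1.04), and 1 lower, Ctsz. Cd40, 1 of 3 costimulation genes, was higher (0.85 and 1.16). These counts stand beside the 8.50% of all genes higher and 7.13% lower in both.

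Most processing genes were lower in sorted KO B cells and dendritic cells. Macrophage markers were lower there too, at a summed 168 CPM in WT and 65.7 in KO B cells, with 1 of 8 at 0 in KO, and 3653 and 1958 CPM in dendritic cells, and their part was not tested. In B cells 8 of 10 were called lower, beside 27.4% of all genes, among them the cathepsin genes Ctss (-0.86), which trims the invariant chain, and Ctsh (-1.13), and Sppl2a was higher (1.07). In dendritic cells 7 of 10 were called lower, beside 18.7% of all genes, among them Ctsd (-1.28), Lgmn (-1.2) and Cst3 (-1.10). In B cells of both preparations Creb1 and Irf4 were the 2 of 13 regulators called higher, H2-Eb2 the 1 of 3 other chains and Ctsh the 1 of 8 processing genes called lower, with 3 to 5 WT tumor UMIs behind H2-Eb2, Creb1 and Irf4. Of 4 turnover genes and partners 1 was higher, Cxcr4 (2.25 and 1.74), and 1 lower, Ddt (-2.27 and -0.70). Beside them 13.0% of all genes were higher and 12.3% lower in both. H2-Oa and H2-Ob, whose product restrains H2-DM, were B cell genes here, at 324 and 489 CPM in WT sorted B cells, 62.0 and 40.6 in myeloid dendritic cells and 2.24 and 3.11 in M1 macrophages.

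Across 50 combinations of cell type and library, the genes whose log2 CPM followed the class II sum most closely outside the set were Cd83 (Pearson r 0.934), Irf5 (0.931), Cybb (0.922), March1 (0.921) and Ly86 (0.919). Ciita gave 0.921, and within the set r ran from 0.998 for Cd74 to 0.847 for H2-DMb2. For Ciita the nearest were Rnase6 (0.920), Kmo (0.912), Cd40 (0.905), Cd83 (0.901) and Gm6377 (0.897). The points share libraries, depth and cell types, so the values describe likeness of pattern only.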

How the data were processed

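The authors deposited 1 matrix of natural log values, ln(1 + 10000 × UMIs / total UMIs of the cell), under the name of counts, with cell type names and total UMI counts per cell. Cell Ranger 6.0.1, Seurat 4.0.5 and the build mm10 are listed in the submitters' processing notes with no role; how cells were filtered is not given in the sources used here, and the smallest cell had 500 UMIs. Whole counts were regained by undoing this transform: all 60957742 nonzero values came out whole (largest distance 3.82e-11 UMI), and in all 20376 cells the sum equalled the deposited total.

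For each gene, the UMIs of a class in a library were added up and divided by all UMIs of that class and library (CPM). Because cells could not be mapped to the 16 samples, the rule for 1 library per group was followed. At 95%, CPM have exact Poisson intervals, shares Clopper-Pearson intervals and ratios intervals from a conditional binomial. Classes were compared where each library had at least 50 cells. The median gene was taken over genes with at least 20 UMIs. The ratio script was tested on simulated counts. No cells were removed as doublets. The alternative, removing cells with at least 3 markers in each of 2 lineages, took 19.7%, 16.1%, 34.8% and 23.0% of cells (sorted WT and KO, then tumor WT and KO) and also takes deep single cells. The genes named are the 8 members, the called genes of the lists and the 5 nearest by correlation over genes with at least 1000 UMIs. The values of 1 called list gene are not reported here. The members and lists were chosen with earlier results of these data known. H2-Eb1 overlaps an antisense gene in the annotation, and H2-Ea is not among the genes analysed here. Alternatives are scaling, cell weighting, thinning (seed 1), cell depth, doublets, gene filters, macrophage names, the sum without Cd74 and, chosen after seeing the data, leaving out cells with shared barcodes. Python 3.11.15, numpy 2.4.6, scipy 1.17.1 and pandas 2.3.3 were used.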

Additional observations from a re-analysis of the deposited data

Results flagged for a closer look

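In 3 cell types the class II sum was called lower in KO in the sorted libraries and higher in the tumor libraries, which drew attention to them. The difference between preparations was not tested. The sign also differed in M1 macrophages, with a log2 of 0.39 in sorted and -0.14 in tumor cells, both within 1.5-fold of the median gene. In fibroblasts the log2 ratio relative to the median gene was -1.59 in sorted and 1.64 in tumor cells. Macrophage markers in the sorted fibroblasts summed to 557 CPM in WT and 45.3 in KO. Of the 164 WT sorted fibroblasts, 2 held 62.2% of the class II UMIs of the class, and 1 of 78 KO cells held 28.9%. Without cells of 2 lineages the sorted sums, 501 and 221 CPM, were 325 and 180. In the authors' cancer stem cells the ratio was -1.28 and 2.68, the tumor value resting on 7 WT and 106 KO UMIs. Erythroid markers in the sorted cells of that class summed to 180305 CPM in WT and 0 in KO. There B cell markers summed to 669 and 31.2 CPM and macrophage markers to 1284 and 1091. In the authors' hematopoietic stem cells the ratio was -1.08 and 4.13, with 6 WT and 139 KO UMIs in the tumor libraries. Summed B cell markers of that class were 20.3 and 75.6 CPM there, against 9571 and 6380 CPM in the sorted libraries. The part of all these markers in the results was not tested.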

How the results depend on the processing

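Values are log2 KO over WT of the class II sum unless said, and the cause of each shift was not tested. The main values were 0.56 in sorted and 0.84 in tumor macrophages, -0.77 in sorted and -0.31 in tumor B cells and -0.63 in sorted dendritic cells. In the same order they were 0.90, 1.17, -0.33, 0.025 and -0.34 scaled by total UMIs. With each cell thinned they were 0.46, 1.12, -0.82, -0.56 and -0.77. With equal weight per cell they were 0.39, 0.74, -0.20 (tumor B cells) and -0.80 (dendritic cells). With the median over genes of at least 100 UMIs they were 0.58, 0.89, -0.04 (tumor B cells) and -0.60 (dendritic cells), and over all genes with a UMI in each library 0.51 (sorted macrophages), -0.81, -0.075 and -0.61. Without Cd74 in the sum they were 0.68, 0.93, -0.62 (sorted B cells) and -0.58 (dendritic cells). Without cells with a shared barcode they were 0.66 in sorted macrophages and -0.60 in dendritic cells, and without cells of 2 lineages 1.03 in tumor macrophages. Within M1 macrophages they were 0.39 sorted and -0.14 tumor, and within M2 0.21 and 1.59; within myeloid dendritic cells the value was -0.60. The direction thus turned within tumor M1 macrophages and, by total UMIs, in tumor B cells. Ciita, 1.34 in sorted and 2.01 in tumor macrophages, was 1.68 sorted by total UMIs, 3.597 thinned in tumor cells, and 0.38 sorted and 0.20 tumor within M1. The 3 genes higher in macrophages of both preparations became 6 by total UMIs, 0 within M1 and 1 within M2, and the 0 genes lower in B cells of both became 1 when thinned and 1 in cells of at least 1000 UMIs. Another 45 values stayed within their counting interval or, for counts, within 1.5 times. Among single genes, direction changed under some setting for H2-DMb1 in sorted B cells, H2-DMb2 in dendritic cells and, in tumor B cells, for Ciita, H2-Aa, H2-Ab1, H2-DMa and H2-DMb1. Within M1 it also turned for H2-DMa in sorted (-0.14) and for Cd74 (-0.26), H2-Ab1 (-0.035), H2-Eb1 (-0.20), H2-DMa (-0.17) and H2-DMb1 (-0.31) in tumor macrophages. No paired analysis was possible because each group was 1 library and no test was made. Few cells limit the WT tumor values: Ciita rests on 15 UMIs in 191 macrophages and 11 in 58 B cells there. After thinning 142 of 143 WT tumor macrophages had no Ciita UMI, which limits the thinned value of 3.597.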
